A study of Mus musculus with 3 samples.

Results

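The genes described here encode ATP-dependent chromatin remodelers and their subunits: the BAF (SWI/SNF) complexes, the CHD family, the ISWI and INO80 complexes, Atrx, and further genes with an ARID DNA-binding domain. Members were chosen by symbol alone: every gene of the count files named Chd1 to Chd9, Smarca to Smarce with any suffix, Arid1 to Arid5 with an optional letter, Bptf, Ino80 with an optional letter, or Atrx. The rule took 40 of the 32531 genes in the files, and it used no measured value. Among the 40 is 1 pseudogene, Smarca5-ps.

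RNA came from the dissected dentate gyrus of adult C57BL/6J mice of the Penk-TRAP NIDA186 line, which carry ribosomal protein L10a fused to EGFP (Penk-EGFP/Rpl10a). In TRAP (translating ribosome affinity purification), an antibody to EGFP pulls down the tagged ribosomes with the RNA bound to them. The 3 libraries are replicates of a single group: every mouse was untreated, every mouse carried the transgene, and every library is an immunopurified one. Tagging follows the activity of the Penk regulatory sequence in the line, which the labels do not trace to a cell type. No library of unbound RNA, of another line or of a treatment was analysed here, so the comparisons possible are between genes within a library and between the 3 libraries. The labels give neither the sex nor the exact age of the mice, nor whether each library was 1 animal or a pool. The p-values below therefore rest on these 3 libraries alone, and the spread between them may be technical.

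Chromatin remodelers use ATP to slide, eject or exchange nucleosomes, the units in which DNA is wrapped around histones. Each complex has an ATPase motor of the Snf2 family and a set of subunits that guide it, and many subunits are encoded by paralogs that replace each other in the complex. In the nervous system the BAF complex is known for such a switch: neural progenitors and postmitotic neurons assemble it from different paralogs, and mutations in BAF and CHD genes are a known cause of neurodevelopmental disorders.

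Total counts on genes were 5348761, 19195559 and 11059982 in replicates 1 to 3, so 3 counts correspond to 0.707, 0.131 and 0.257 CPM (counts scaled to the effective total of the library). Replicate 1 stood apart in more than depth: 16.3% of its counts lay on genes, against 38.2% and 21.1%, and Malat1, a nuclear RNA, took 6.71% of its gene counts against 1.98% and 3.47%. Summed over a list of 7 nuclear RNAs, of which all 7 passed the filter, the level was 96346, 18830 and 37700 CPM. Malat1 alone gave 84636, 16582 and 32870 CPM of this. Meg3, Snhg11 and Rian were also highest in replicate 1, while Neat1, Miat and Mirg were highest in replicate 3. Pan-neuronal markers summed to between 7890 and 13958 CPM and granule cell markers to between 1091 and 2092 CPM, with C1ql3 at 0 in replicate 1. Prox1, Rfx3 and Stxbp6 gave most of the granule cell sum, while Calb1 and Tdo2 had 2 and 1 counts in replicate 1. Astrocyte markers summed to 1341 to 3114 CPM, of which Slc1a2 alone gave 2874, 1228 and 2796 CPM, while Gja1 was at 0 in replicate 1. Oligodendrocyte markers summed to 704 to 1120 CPM. Endothelial and mural markers summed to 305 to 867 CPM. Of this Rgs5 gave 370, 747 and 67.2 CPM and Flt1 17.2, 89.8 and 227 CPM, while Cldn5 and Pecam1 were at 0 in replicate 1. The sums of the other lists were 130 to 377 CPM for progenitor and cycling markers and 241 to 346 CPM for interneuron markers. Of the interneuron markers, Pvalb, Vip and Npy were at 0 in replicate 1. The sums of mossy cell (21.1 to 47.6 CPM), oligodendrocyte precursor (4.72 to 38.9 CPM) and microglial markers (3.30 to 20.9 CPM) were the lowest. Of 5 microglial markers 4 were at 0 in at least 1 library, and of 4 mossy cell markers 3 were (Calb2, Drd2 and Csf2rb2). In RNA from tissue, fewer cells of a type and less RNA per cell cannot be told apart, and the part that glial RNA or nuclear RNA plays in the levels below was not tested.

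The 40 remodeler genes together held 0.527%, 0.525% and 0.710% of all gene counts. Of them 4 were at 0 in replicate 1, 0 in replicate 2 and 2 in replicate 3. To compare genes with each other, CPM were divided by the length of a gene's merged exons in kilobases (CPM per kb), and each gene's log2 value was set against the median tested gene of the same library. This difference is called the level below. A gene was called above or below when its level differed from the median gene by more than 1 on the log2 scale at an adjusted p under 0.05 (limma's TREAT test, Benjamini-Hochberg adjustment over 8157 genes). The SE and p-value of a level use a variance that limma draws partly from other genes, not from the gene's 3 values alone. For Arid4a, for example, the SD of the level over libraries was 0.15 and this SE was 0.43. After the filter on low counts 33 of the 40 were tested. The 7 that were not are Smarcb1, Smarcd2, Arid3b, Arid3c, Ino80b, Ino80e and Smarca5-ps, and a gene that passes such a filter is by that fact not among the lowest.

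Of the 33 tested members, 7 lay above the median gene: Smarca2, Arid4a, Bptf, Chd3, Arid1a, Smarcc2 and Atrx. That is 21.2% of the tested members, where 10.6% of all tested genes were called above. A single member, Arid5a, lay below, which is 3.03% where the share over all tested genes was 4.19%. The other 25 were called in neither direction. The median level of the tested members was 0.83 on the log2 scale, against -0.14 over all tested genes. The genes above included the BAF motor Smarca2 and the NuRD motor Chd3. Of the ISWI genes only Bptf was above, and the motors Smarca5 and Smarca1 were called in neither direction (levels -0.42 and -2.43). None of the INO80 genes was above. Smarca2, Arid4a, Chd3 and Arid1a were called above under all 12 other settings and sample sets tried. Calls for Atrx and Bptf were lost without replicate 3 (levels 2.42 and 2.69, adjusted p = 0.126 and 0.0525, limma), and that for Smarcc2 without replicate 2 (level 2.54, adjusted p = 0.0736, limma); each of these p-values is the highest over the 12 alternatives for its gene.

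**Figure D1:**
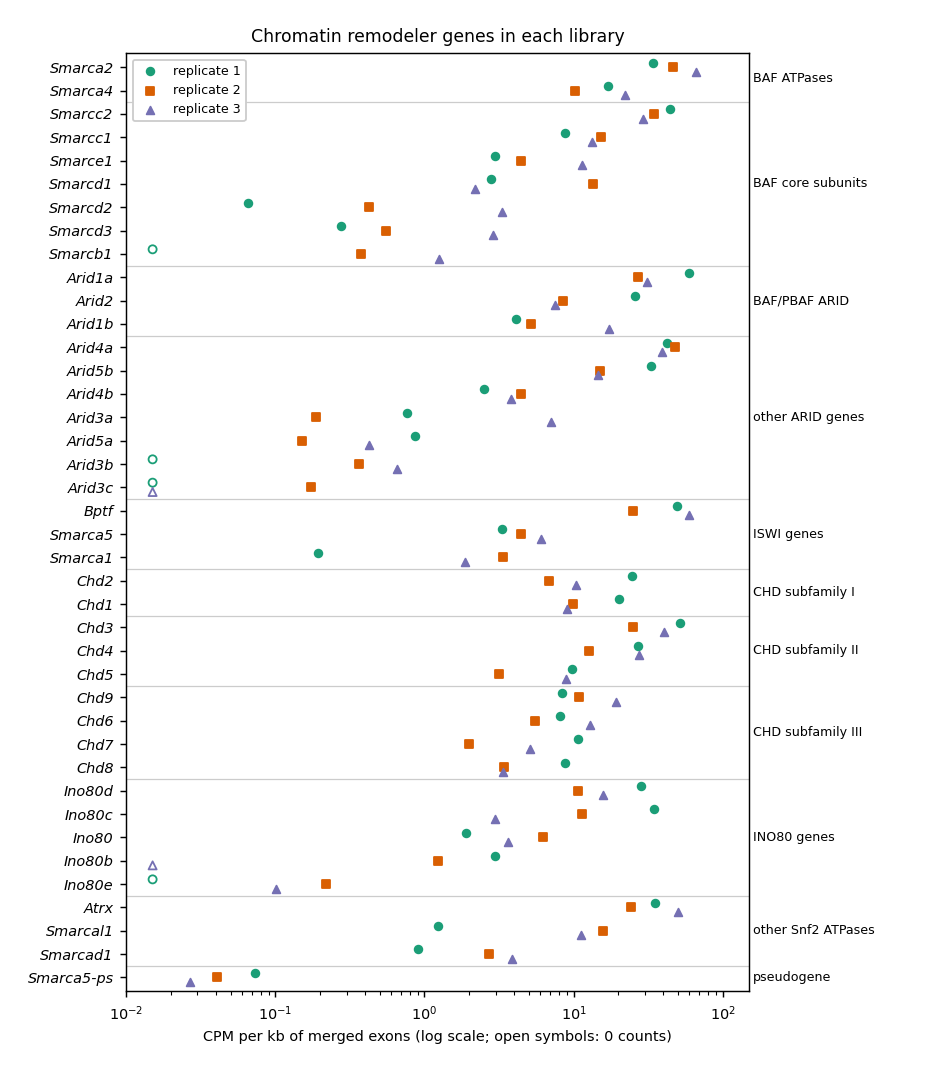
Level of each of the 40 remodeler genes in each of the 3 libraries, in CPM per kb of merged exons on a log axis, grouped by role, with open symbols at the left for a count of 0. Smarca2, Bptf, Arid4a, Arid1a and Chd3 have the highest means, from 39.2 to 48.8 CPM per kb. Among genes with counts in every library, Arid3a, Smarcd2, Smarca1, Smarcal1, Ino80c and Smarcd3 are spread over more than a log10 unit.

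**Figure D2:**
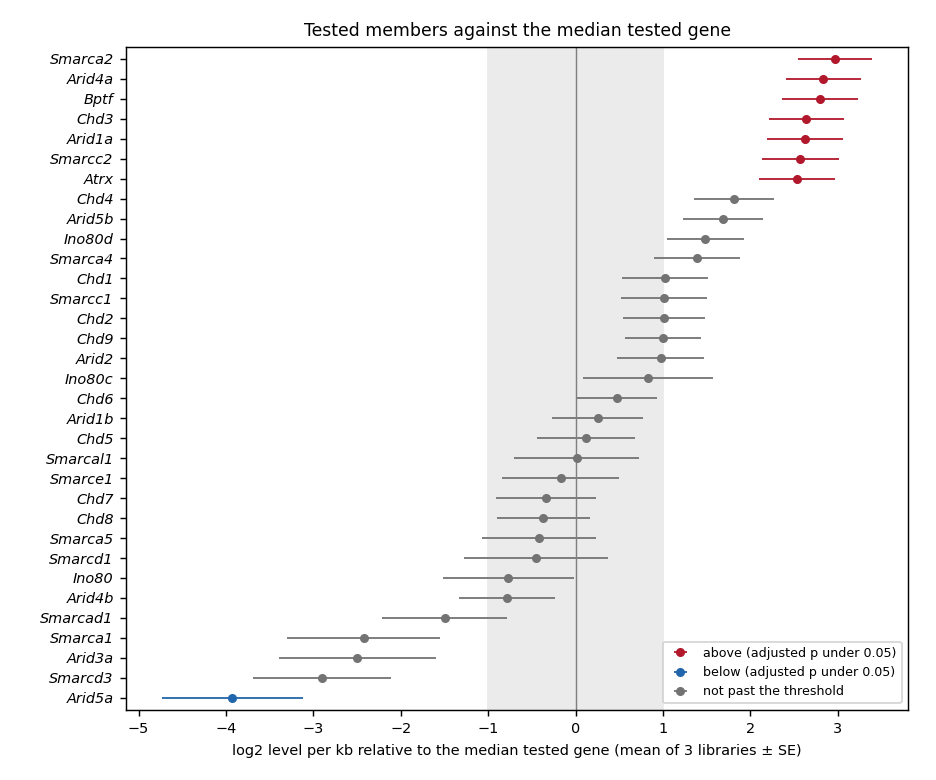
Level of the 33 tested members relative to the median tested gene, on the log2 scale, as the mean of 3 libraries with limma's standard error, and with a grey band for the threshold of 1 in either direction. The 7 genes called above lie between 2.53 and 2.97, and Arid5a lies at -3.93.

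The 2 ATPases of the BAF complex, Smarca2 (BRM) and Smarca4 (BRG1), were both detected in every library, with Smarca2 the higher per kb in all 3. Either motor can drive a BAF complex, but a complex holds only 1 of them. Smarca2 (ENSMUSG00000024921, chromosome 19, 26605050 to 26778322 on the plus strand of GRCm38) had 2073, 15103 and 11020 counts, or 34.3, 46.2 and 66.1 CPM per kb. Its 3 values give a mean of 48.8 ± 16.1 (SD, n = 3) and a level of 2.97 ± 0.43 (SE; limma's TREAT test, adjusted p = 0.000794), the highest of the members. Smarca4 (ENSMUSG00000032187, chromosome 9, 21616169 to 21704230, plus strand) had 467, 1521 and 1687 counts, or 17, 10.3 and 22.3 CPM per kb. The Smarca4 values lay below the lowest Smarca2 value in every library, and Smarca4 was not called (level 1.39, limma's adjusted p = 0.544). Smarca2 exceeded Smarca4 by 1.01, 2.17 and 1.57 on the log2 scale per kb, a mean of 1.58 ± 0.58 (SD, n = 3) or 2.99-fold. With the exons of RefSeq transcripts alone as the length, the mean difference was 2.76, since the merged exons of Smarca2 are long (14.3 kb). With 3 libraries the exact two-sided sign-flip test cannot give a p below 0.25, which is the value for this pair and for every pair whose sign was the same in all 3.

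The BAF scaffold is a dimer built from Smarcc1 (BAF155) and Smarcc2 (BAF170). Smarcc2 (ENSMUSG00000025369, chromosome 10, 128459248 to 128490482, plus strand) had 1047, 4441 and 1905 counts, or 44.5, 34.9 and 29.4 CPM per kb. Its level was 2.57 ± 0.44 (SE; limma's TREAT test, adjusted p = 0.00769). Smarcc1 (ENSMUSG00000032481, chromosome 9, 110117708 to 110240178, plus strand) had 292, 2758 and 1218 counts, or 8.79, 15.4 and 13.3 CPM per kb. The ranges of the 2 genes did not overlap. The difference per kb was 2.34, 1.18 and 1.14 on the log2 scale, with replicate 1 the widest, for a mean of 1.55 ± 0.68 (SD, n = 3) or 2.94-fold. In shares, Smarcc2 made up 83.5%, 69.4% and 68.8% of the summed level of the pair, and Smarca2 made up 66.8%, 81.8% and 74.8% of its own pair.

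The promoter windows of these 4 genes, the paralog pairs of the BAF motor and scaffold, are given to set the higher beside the lower paralog, from 250 bases before to 50 bases after the start of the gene in RefSeq (GRCm38.p6), 5′ to 3′ on the gene's strand, with each CG dinucleotide in capitals. The windows are chr19:26604910-26605209 for Smarca2, chr9:21615919-21616218 for Smarca4, chr10:128458986-128459285 for Smarcc2 and chr9:110131774-110132073 for Smarcc1, all on the plus strand. They hold 29, 33, 48 and 33 CG dinucleotides.
Smarca2: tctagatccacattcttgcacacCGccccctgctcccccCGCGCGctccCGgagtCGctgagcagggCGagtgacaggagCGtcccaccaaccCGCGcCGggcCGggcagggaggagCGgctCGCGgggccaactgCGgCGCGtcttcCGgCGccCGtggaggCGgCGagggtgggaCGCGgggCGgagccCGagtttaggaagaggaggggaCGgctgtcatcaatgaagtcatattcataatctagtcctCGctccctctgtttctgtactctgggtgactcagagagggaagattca
Smarca4: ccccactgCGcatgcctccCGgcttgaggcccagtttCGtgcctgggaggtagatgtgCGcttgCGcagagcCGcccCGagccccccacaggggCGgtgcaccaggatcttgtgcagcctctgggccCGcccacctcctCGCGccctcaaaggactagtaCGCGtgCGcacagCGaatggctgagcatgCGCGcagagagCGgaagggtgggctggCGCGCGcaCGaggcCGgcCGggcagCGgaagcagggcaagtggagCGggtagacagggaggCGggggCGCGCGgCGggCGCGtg
Smarcc2: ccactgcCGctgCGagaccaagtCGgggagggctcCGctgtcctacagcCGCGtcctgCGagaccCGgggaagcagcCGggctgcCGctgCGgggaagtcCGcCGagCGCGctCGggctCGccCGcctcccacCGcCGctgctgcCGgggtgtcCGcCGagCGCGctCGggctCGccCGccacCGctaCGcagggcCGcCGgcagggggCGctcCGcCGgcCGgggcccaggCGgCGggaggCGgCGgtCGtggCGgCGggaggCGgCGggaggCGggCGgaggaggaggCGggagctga
Smarcc1: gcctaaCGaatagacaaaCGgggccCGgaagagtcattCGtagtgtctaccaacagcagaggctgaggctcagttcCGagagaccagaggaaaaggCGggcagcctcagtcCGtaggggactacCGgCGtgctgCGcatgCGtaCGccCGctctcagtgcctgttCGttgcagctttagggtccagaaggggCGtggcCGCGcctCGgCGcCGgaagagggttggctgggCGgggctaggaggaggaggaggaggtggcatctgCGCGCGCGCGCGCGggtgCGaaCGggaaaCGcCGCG

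All 4 windows are dense in CG, the higher and the lower paralog alike: Smarca4 has more CG dinucleotides than Smarca2, and Smarcc2 more than Smarcc1. Windows were found for 29 of the 40 members, 36 windows in all because some genes have several starts. Their median was 25 CG dinucleotides, with a range from 1 to 48, against 21 in the 8220 windows of all tested genes and 7 in all 32851 windows. At least 10 were present in 32 of the 36 member windows (88.9%), in 80.2% of the windows of tested genes and in 43.5% of all windows. Motifs were searched as fixed letters on both strands: TATAAA for the TATA box, CCAAT for the CCAAT box and CCGGAAG for the core of ETS factors, none of which contains another. The CCAAT letters were in 36.1% of the member windows, 36.8% of those of tested genes and 37.4% of all. The ETS letters were in 13.9%, 15.4% and 8.86%, and the TATA letters in 5.56%, 6.84% and 13.6%. These are matches of letters and not measured binding.

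The remaining core subunits were lower, and their makeup changed from library to library. Smarcd1, Smarcd2 and Smarcd3 (BAF60A, B and C) are alternative subunits that link BAF to transcription factors, of which Smarcd3 is known from muscle, heart and neurons. Smarcd1 had 48, 1253 and 102 counts, or 2.81, 13.6 and 2.17 CPM per kb. Smarcd2 had 1, 35 and 139 counts, or 0.0657, 0.426 and 3.31 CPM per kb. Smarcd3 had 6, 65 and 173 counts, or 0.276, 0.554 and 2.89 CPM per kb. Smarcd1 was the highest of the 3 in replicates 1 and 2, with 89.2% and 93.3% of their sum, and the lowest in replicate 3, with 25.9%. So the order of the Smarcd genes was not stable between libraries. Part of the exon sequence of Smarcd3 is read from both strands: 48.2% of its exon bases are shared with Chpf2 on the other strand, and the strand setting of the counting is not given in the sources used here, so its counts are uncertain. Smarce1 (BAF57), which binds DNA through an HMG domain, had 84, 674 and 889 counts, or 2.98, 4.42 and 11.4 CPM per kb, highest in replicate 3. Of its 50-base words 15% also occur in other genes, chiefly Gm8494. Smarcb1 (BAF47), the subunit that contacts the nucleosome and a known tumor suppressor, had 0, 68 and 116 counts and was not tested. At 0 counts, replicate 1 allows up to 0.707 CPM by counting error alone, where replicates 2 and 3 had 2.97 and 9.92 CPM.

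Arid1a and Arid1b (BAF250A and B) define the canonical BAF complex, whereas Arid2 (BAF200) defines PBAF. Arid1a (ENSMUSG00000007880, chromosome 4, 133679008 to 133756769, minus strand) had 2913, 7136 and 4193 counts, or 59.8, 27.1 and 31.3 CPM per kb, highest in replicate 1. Its level was 2.62 ± 0.43 (SE; limma's TREAT test, adjusted p = 0.00529). Arid1b (ENSMUSG00000069729, chromosome 17, 4994332 to 5347656, plus strand) had 219, 1489 and 2556 counts, or 4.10, 5.16 and 17.4 CPM per kb, highest in replicate 3. Arid1b lay below Arid1a in every library, by 3.86, 2.39 and 0.85 on the log2 scale per kb. The size of that gap was not stable: Arid1b held 4.56%, 12.7% and 30.9% of the summed level of the 3 ARID subunits. Arid2 had 1179, 2085 and 939 counts, or 25.9, 8.48 and 7.48 CPM per kb. Its mean difference from Arid1a was -1.65 ± 0.43 (SD, n = 3) on the log2 scale per kb, negative in all 3 libraries.

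**Figure D3:**
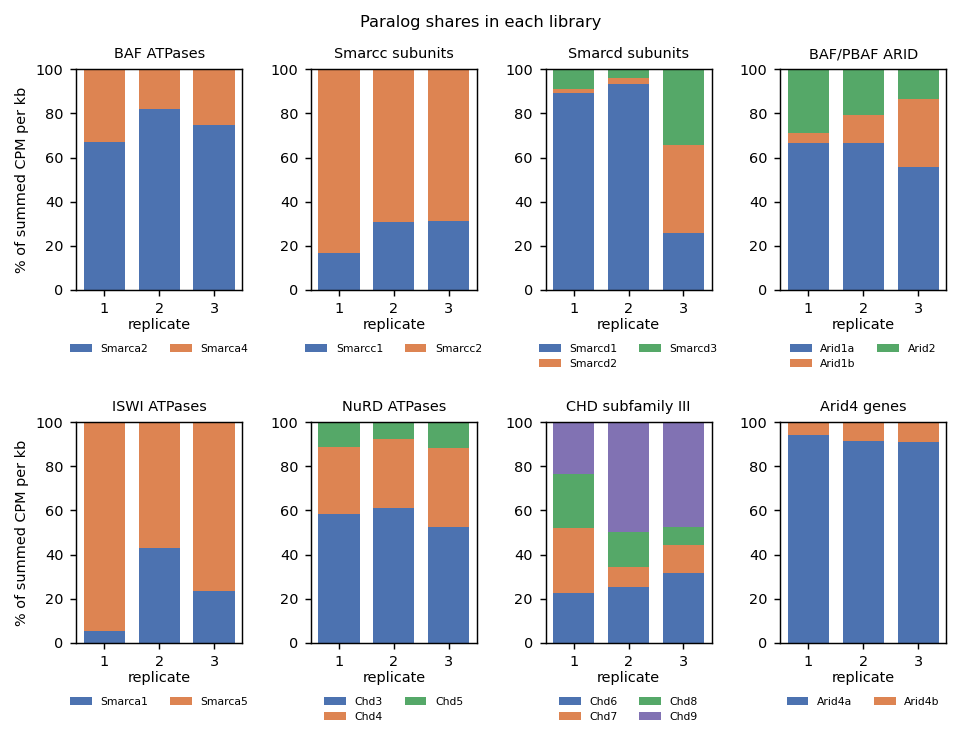
Share of each paralog in the summed CPM per kb of its family (0 to 100%), by replicate, for 8 families of remodeler genes. Smarca2, Smarcc2, Chd3 and Arid4a make up the largest share of their families in all 3 libraries, while Smarcd1 falls from 89.2% and 93.3% in replicates 1 and 2 to 25.9% in replicate 3.

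Several BAF subunits that the symbol rule did not take are known to mark the switch from progenitors to neurons: Actl6a, Ss18 and Phf10 in progenitors, and Actl6b, Ss18l1 and Dpf1 in neurons. Actl6b (BAF53B) had 115, 209 and 88 counts, and Actl6a (BAF53A) had 3, 310 and 0. Actl6b was higher per kb in replicates 1 and 3, and Actl6a in replicate 2, by 0.70 on the log2 scale. Ss18l1 (CREST) had 220, 1869 and 124 counts and Ss18 had 18, 1017 and 312, so that Ss18l1 was higher per kb by 4.68 and 1.99 on the log2 scale in replicates 1 and 2 and lower by 0.20 in replicate 3. Dpf1 (BAF45B) had 59, 158 and 5 counts, and Phf10 (BAF45A) had 95, 603 and 285. Here the progenitor form was the higher per kb in all 3 libraries, with 4.56, 5.36 and 4.96 CPM per kb for Phf10 against 2.59, 1.28 and 0.0796 for Dpf1. The 3 pairs therefore did not share a direction in these libraries. Progenitor and cycling markers, given above, were lowest in replicate 3 and highest in replicate 1.

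Chd3, Chd4 and Chd5 are the alternative ATPases of the NuRD complex, which couples remodeling to the removal of acetyl groups from histones, and Chd5 is known as the neuronal form. Chd3 (ENSMUSG00000018474, chromosome 11, 69343273 to 69369406, minus strand) had 1869, 4832 and 4002 counts, or 52.2, 25 and 40.6 CPM per kb. Its level was 2.64 ± 0.43 (SE; limma's TREAT test, adjusted p = 0.00475). Chd4 had 920, 2322 and 2581 counts, or 27.0, 12.6 and 27.5 CPM per kb. All 3 Chd4 values lay under the Chd3 value of the same library, and the 2 genes had their lowest value in the same replicate, the second. Chd4 did not pass the test (level 1.81, adjusted p = 0.19, limma), although it did without replicate 1 (level 2.07, adjusted p = 0.0254, limma), and over 12 alternatives limma's adjusted p ran from 0.000123 to 0.439. Chd5 had 400, 693 and 998 counts, or 9.84, 3.16 and 8.91 CPM per kb, the lowest of the 3 in each library. The order Chd3, Chd4, Chd5 thus held in all 3 libraries, with differences from Chd4 of 0.83 ± 0.24 for Chd3 and -1.69 ± 0.28 for Chd5 (log2 per kb, SD, n = 3). Their shares lay in narrow ranges: Chd3 held 52.7 to 61.3% of the summed level, Chd4 30.4 to 35.8% and Chd5 7.74 to 11.6%.

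Chd1 and Chd2 form the first CHD subfamily; Chd1 is known to act on transcribed genes, and Chd2 mutations are a known cause of childhood epilepsy. Chd1 had 746, 1992 and 917 counts, or 20.2, 9.97 and 9.00 CPM per kb. Chd2 had 1491, 2259 and 1747 counts, or 24.6, 6.90 and 10.5 CPM per kb. Both were highest in replicate 1, and their ranges overlapped. Their difference, Chd2 minus Chd1, was 0.28, -0.53 and 0.22 on the log2 scale per kb, so neither was the higher in all libraries. With RefSeq exons as the length the mean difference turned from -0.011 to 0.50. Of the 50-base words of Chd2 18% are shared with other genes, chiefly 1810026B05Rik, which makes its counts uncertain.

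The third CHD subfamily holds Chd6, Chd7, Chd8 and Chd9; Chd7 is the gene mutated in CHARGE syndrome and has a known role in neural progenitors, and Chd8 is a known autism risk gene. Chd6 had 657, 2420 and 2880 counts, or 8.11, 5.53 and 12.9 CPM per kb. Chd7 had 624, 624 and 818 counts, or 10.7, 1.98 and 5.08 CPM per kb. Replicate 1 was thus the highest for Chd7 and replicate 3 the highest for Chd6. Chd8 had 615, 1290 and 646 counts, or 8.78, 3.41 and 3.35 CPM per kb. Chd9 had 823, 5734 and 5253 counts, or 8.38, 10.8 and 19.4 CPM per kb. In replicate 1 the 4 genes lay close together, with Chd7 the highest, whereas Chd9 was the highest in replicates 2 and 3, with 49.8% and 47.7% of their sum against 23.3% in replicate 1. None of the 4 was called in either direction by limma, and each had an unadjusted p of at least 0.05. Neighbours in the order of means, Chd9, Chd6, Chd7 and Chd8, differed by less than their spread over libraries.

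In the ISWI complexes, Smarca5 (SNF2H) and Smarca1 (SNF2L) are the motors that space nucleosomes, and Bptf is the large subunit of the NURF complex that reads histone marks. Bptf (ENSMUSG00000040481, chromosome 11, 107033081 to 107132127, minus strand) had 2945, 8047 and 9781 counts, or 49.3, 24.9 and 59.4 CPM per kb. Its level was 2.79 ± 0.44 (SE; limma's TREAT test, adjusted p = 0.00229). Smarca5 had 110, 795 and 552 counts, or 3.33, 4.46 and 6.07 CPM per kb. Smarca1 had 5, 474 and 134 counts, or 0.193, 3.38 and 1.87 CPM per kb. Both motors were far under Bptf in every library, and Smarca1 was under Smarca5 in every library, by 3.94, 0.40 and 1.68 on the log2 scale per kb, with the value of replicate 1 resting on 5 counts of Smarca1. Smarca5 and its processed copy Smarca5-ps share sequence: 28.2% of the 50-base words of Smarca5 also occur elsewhere, chiefly in the pseudogene, and 62.3% of those of the pseudogene. Smarca5-ps itself had 1, 3 and 1 counts, the lowest mean per kb of the 40.

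Of the INO80 complex, which exchanges the histone variant H2A.Z, the symbol rule took the motor Ino80 and the subunits Ino80b, Ino80c, Ino80d and Ino80e. Ino80 had 55, 979 and 287 counts, or 1.91, 6.28 and 3.61 CPM per kb. Ino80d had 2128, 4378 and 3247 counts, or 28.3, 10.8 and 15.7 CPM per kb, above Ino80 in every library. Ino80c had 416, 741 and 99 counts, or 34.7, 11.4 and 3.0 CPM per kb. The motor was lowest in replicate 1, where Ino80c and Ino80d were highest. Ino80b had 20, 45 and 0 counts and Ino80e had 0, 38 and 9, and neither was tested; 16.4% of the exon bases of Ino80e are shared with genes on the other strand. Levels of the tested INO80 genes were 1.48 for Ino80d, 0.83 for Ino80c and -0.77 for Ino80, and none passed limma's test, adjusted or not.

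Among the remaining Snf2 ATPases, Atrx places histone H3.3 at repeats and is the gene of an X-linked intellectual disability syndrome, Smarcal1 rewinds DNA at stalled replication forks, and Smarcad1 acts at replicated chromatin and DNA breaks. Atrx (ENSMUSG00000031229, chromosome X, 105797615 to 105929403, minus strand) had 3255, 12028 and 12695 counts, or 35.3, 24.1 and 49.9 CPM per kb. Its level was 2.53 ± 0.43 (SE; limma's TREAT test, adjusted p = 0.00822). Smarcal1 had 30, 2072 and 750 counts, or 1.23, 15.8 and 11.2 CPM per kb. Smarcad1 had 51, 831 and 604 counts, or 0.903, 2.72 and 3.88 CPM per kb. Both of these were lowest in replicate 1, and every Atrx value lay above every value of either.

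The ARID genes outside BAF gave both the narrowest and the widest spread between libraries. Arid4a and Arid4b are paralogs that bind the SIN3 deacetylase complex. Arid4a (ENSMUSG00000048118, chromosome 12, 71015990 to 71098592, plus strand) had 1013, 6145 and 2563 counts, or 42.5, 47.8 and 39.1 CPM per kb. Its range over libraries was 0.29 on the log2 scale, the smallest of the 33 tested members, and its level was 2.83 ± 0.43 (SE; limma's TREAT test, adjusted p = 0.0016). Arid4b had 180, 1722 and 757 counts, or 2.50, 4.43 and 3.82 CPM per kb. It lay below Arid4a in every library by a mean of 3.62 ± 0.40 (SD, n = 3) on the log2 scale per kb, which shrank to a difference of -2.31 with the exons of RefSeq transcripts as the length, because 17 kb of merged exons are annotated for Arid4b. Arid4a held 94.4%, 91.5% and 91.1% of the summed level of the pair, or 80.5 to 87.3% with RefSeq exons.

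Arid5b, a partner of the demethylase Phf2, and its paralog Arid5a, known as an RNA-binding protein that stabilizes cytokine mRNAs, differed the most of the 18 pairs compared. Arid5b had 1419, 3456 and 1709 counts, or 33.3, 15 and 14.5 CPM per kb. Arid5a (ENSMUSG00000037447, chromosome 1, 36307733 to 36324029, plus strand) had 46, 43 and 62 counts, or 0.865, 0.150 and 0.423 CPM per kb. The groups of values were far apart in every library, at 5.25, 6.53 and 5.06 on the log2 scale per kb, a mean of 5.61 ± 0.80 (SD, n = 3) or 49.0-fold. With the exons of RefSeq transcripts as the length the mean difference was 4.90, and with the longest transcript 4.83. Arid5a was the member called below, at -3.93 ± 0.80 (SE; limma's TREAT test, adjusted p = 0.00648). That call was lost without correction for length (level -2.68, limma's adjusted p = 0.101). It was also lost when replicate 2 (level -3.31, limma's adjusted p = 0.134) or replicate 3 (level -3.85, limma's adjusted p = 0.0512) was left out, and over 12 alternatives limma's adjusted p ran from 0.000223 to 0.397.

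The promoter windows of this pair are shown because 1 of them is poor in CG: in RefSeq (GRCm38.p6) the Arid5b window, chr10:68278677-68278976 on the minus strand, holds 7 CG dinucleotides, and the Arid5a window, chr1:36307483-36307782 on the plus strand, holds 22. Capitals mark CG dinucleotides.
Arid5b: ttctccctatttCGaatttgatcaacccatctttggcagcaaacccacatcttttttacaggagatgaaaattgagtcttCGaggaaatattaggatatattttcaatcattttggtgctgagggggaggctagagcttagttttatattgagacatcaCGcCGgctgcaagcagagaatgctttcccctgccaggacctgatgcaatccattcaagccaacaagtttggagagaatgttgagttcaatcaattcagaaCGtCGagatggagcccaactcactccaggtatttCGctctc
Arid5a: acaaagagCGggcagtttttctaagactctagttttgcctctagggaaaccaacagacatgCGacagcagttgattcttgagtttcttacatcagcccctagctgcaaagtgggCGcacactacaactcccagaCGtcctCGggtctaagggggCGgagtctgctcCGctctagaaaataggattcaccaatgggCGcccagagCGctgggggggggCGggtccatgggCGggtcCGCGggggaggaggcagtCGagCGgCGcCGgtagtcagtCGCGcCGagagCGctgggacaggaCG

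The gene with the higher level thus has the window with fewer CG dinucleotides, and its window is 1 of the 2 member windows with the TATA letters, while that of Arid5a has the CCAAT letters. Other starts of Arid5b may exist, and the counts do not show which start was used.

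The Arid3 genes encode factors of the Bright family, which are known from B cells and stem cells. Arid3a had 18, 24 and 459 counts, or 0.763, 0.188 and 7.06 CPM per kb. Its range of 5.04 on the log2 scale was the widest of the tested members, and replicate 3 alone held most of its counts. Arid3b had 0, 66 and 61 counts and Arid3c had 0, 7 and 0, and neither was tested.

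**Figure D4:**
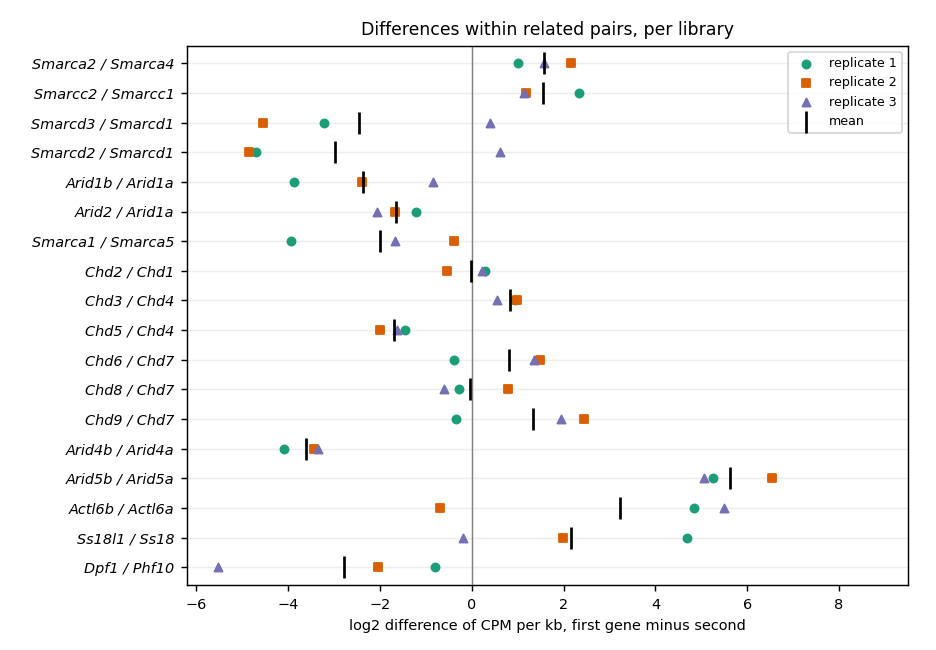
Difference in log2 CPM per kb between the genes of 18 related pairs, first gene minus second, with a symbol per library and a bar at the mean of 3. In 10 of the 18 pairs all 3 libraries lie on the same side of 0, among them Arid5b over Arid5a (mean 5.61) and Smarca2 over Smarca4 (mean 1.58), whereas the Smarcd pairs change side in replicate 3.

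All 33 tested members varied between the libraries by more than the sampling noise of their counts (Poisson chi-square test, Benjamini-Hochberg adjusted over all tested genes), but so did 97.4% of the 8510 genes tested. The median range between the highest and the lowest library was 1.39 on the log2 CPM scale for the members and 1.84 for all tested genes. Ranges ran from 0.29 for Arid4a, 0.60 for Smarcc2 and 0.81 for Smarcc1 up to 3.25 for Smarcd3, 3.51 for Ino80c, 3.65 for Smarcal1, 3.97 for Smarca1 and 5.04 for Arid3a. Without replicate 1 the median range was 0.83 for the members and 0.89 for all tested genes. In replicate 1, 10 of 33 were higher than the mean of the other libraries by more than 1 on the log2 scale and 7 were lower by more than 1 (30.3% and 21.2%), where the shares over all tested genes were 26.5% and 31.9%. Highest in replicate 1 by this measure were Ino80c (2.55), Chd7 (1.75), Arid5a (1.72), Arid2 (1.70) and Chd2 (1.53), and lowest were Smarca1 (-3.55), Smarcal1 (-3.40) and Smarcd3 (-2.09). Replicate 1 is also the shallowest library and the 1 with the highest sum of nuclear RNAs, most of it Malat1. The part these play in its differences was not tested.

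Between replicates 2 and 3, whose levels were the closest over all genes (Spearman's rho = 0.81 across tested genes, which are not independent replicates), the members leaned to replicate 3. In replicate 2, 12 of 33 members were lower than in replicate 3 by more than 1 on the log2 scale (36.4%, against 18.6% of all tested genes), and 2 were higher by more than 1 (6.06%, against 22.0%). The median difference was -0.52 for the members and 0.03 for all tested genes. With a single library on each side this is a difference between 2 libraries, with no replicate check.

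**Figure D5:**
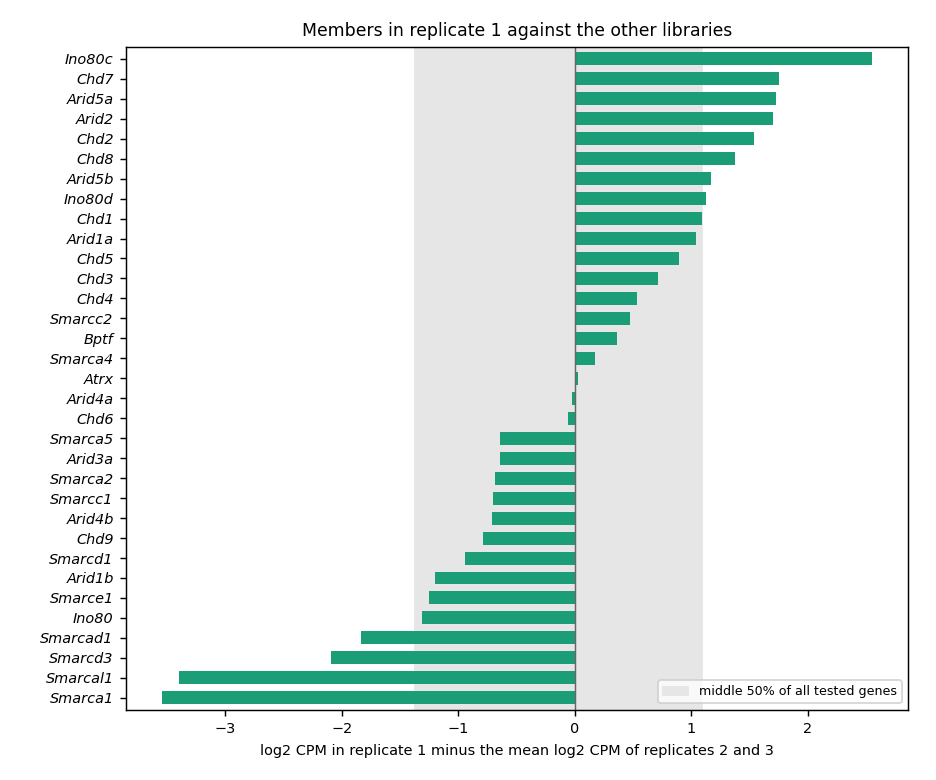
Log2 CPM of the 33 tested members in replicate 1 minus their mean in replicates 2 and 3, with a grey band for the middle 50% of all tested genes. Bars run from 2.55 for Ino80c to -3.55 for Smarca1, and most lie within the band, which spans -1.37 to 1.09.

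The lengths of these genes bear on their levels. Exons merged over all transcripts had a median length of 9.58 kb in the 33 tested members and 3.59 kb in the 7 not tested. Over all tested genes the median was 5.59 kb. Across the 33 members, exon length and the level without length correction had a Spearman's rho of 0.51, and across the 8157 tested genes 0.38, given as descriptions over genes of the same libraries. Without the correction 13 members lay above the median gene (39.4%), where 14.0% of all tested genes did: the 7 named before and Arid5b, Chd2, Chd4, Chd6, Chd9 and Ino80d. The median level of the members was then 1.59.

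Partner genes of the same complexes were listed by their known roles. Of 70 partners with a row in the files 43 were tested, 2 lay above (4.65%, where 10.6% of all tested genes did) and 0 below (4.19% of all tested genes) by limma's TREAT test. At an unadjusted p under 0.05, 4 of the 43 lay above and 2 below, where 1203 and 761 of all 8157 tested genes did. Their median level was 0.11, against -0.14 over all tested genes. Srcap, the motor that loads the histone variant H2A.Z, had 11169, 9941 and 8371 counts, or 167, 27.5 and 45.4 CPM per kb. It was highest in replicate 1, and its level was 3.30 ± 0.49 (SE; limma, adjusted p = 0.000619). Bcl11b, a zinc finger protein found in neural BAF complexes, had 29.1, 30.1 and 21.4 CPM per kb and a level of 2.14 (limma, adjusted p = 0.0484).

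By list, 1 of 14 tested BAF partners was called above (Bcl11b) and 1 of 7 INO80 and SRCAP partners (Srcap), and in the other lists none was. At an unadjusted p under 0.05 (limma), 1 of 9 NuRD partners and 1 of 4 partners of Atrx, SIN3 and Phf2 lay above, where 1203 of all 8157 tested genes did. After Bcl11b, the BAF partner with the highest mean was Gltscr1l (28.6, 15.3 and 11.8 CPM per kb), and the lowest was Dpf3 with 0, 7 and 1 counts. In NuRD, the methyl-CpG binder Mbd2 (42.0, 27.2 and 7.59 CPM per kb) and the scaffold Gatad2b (22, 22 and 17.7 CPM per kb) were the highest, and Cdk2ap1 (0, 86 and 11 counts) the lowest. Gatad2b was nearly level over the libraries, while Mbd2 was lowest in replicate 3. Among ISWI partners Rsf1 (17.4, 7.46 and 16.6 CPM per kb) and Baz1b (14.1, 10.3 and 15.3 CPM per kb) were the highest, and Baz1a (15, 11 and 1 counts) the lowest. In the INO80 and SRCAP list Dmap1 ranked after Srcap, with 25.1 CPM per kb in replicate 1 but 0.629 and 0.357 in the other two, and Actr5 had counts in replicate 3 alone (56). For the partners of Atrx, Arid4 and Arid5b genes, the deacetylase scaffold Sin3a (37.3, 15.5 and 19.3 CPM per kb) and the demethylase Phf2 (20.9, 10.6 and 7.49 CPM per kb) were the highest, and Sap30 (0, 74 and 1 counts) the lowest. Among other Snf2 family genes Shprh (20.3, 4.82 and 9.66 CPM per kb) and Btaf1 (5.61, 4.78 and 8.21 CPM per kb) were the highest, and Ttf2 (0, 0 and 30 counts) the lowest.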

How the data were processed

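RNA bound to tagged ribosomes was sequenced in 3 libraries of a single untreated group. The authors deposited whole-number read counts per gene, from STAR 2.0.0e and HTSeq on mm10, per the submitters' processing notes; the annotation and strand setting are not given in the sources used here. Rows that name no gene (83.7%, 61.8% and 78.9% of all counts in replicates 1 to 3) were left out of library sizes.

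From these counts, edgeR 4.0.16 (R 4.3.3) gave TMM factors of 0.793, 1.19 and 1.06, kept 8510 of 32531 genes (filterByExpr, 1 group) and computed log2 CPM with a prior count of 2. Exon lengths came from GENCODE vM21 (GRCm38), through symbols (23155 matched directly, 737 by synonym), so 8157 genes had a length. Levels were tested with limma 3.58.1 (TREAT with trend, log2 threshold 1); per-library CPM per kb values use effective library sizes. Log2 differences within pairs include the prior count. Genes with counts were given by role, pair and rank as the report states: counts for ATPases, pairs, the 5 highest, 5 lowest and 5 widest-ranging members, and the 2 highest and the lowest partners of each list. The symbol rule for members used no measured value, but the rule, the lists and the pairs were set with earlier results of these data known. Alternatives were other lengths, filters, a prior count of 0.5, DESeq2 1.42.0 size factors, a protein-coding reference, thinning to the shallowest library and leaving out each library; the RefSeq exon length was added after seeing the data. The test of levels was checked on simulated data (8202 genes), where it called 63% of 8-fold and 90% of 16-fold differences. There the SD of a gene between libraries was capped at the upper quartile over genes. The most variable genes were thus simulated with less spread than observed, and recovery in the data may be lower. Intervals and floors cover counting error only.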

Additional observations from a re-analysis of the deposited data

How the results depend on the processing

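With 7 members above and 1 below the median gene, the counts were 13 and 0 without length correction, where all genes had 14.0% and 5.03%. They were 18 and 3 of 40 without a filter (45% and 7.5%, where all genes had 19.5% and 18.3%). With at least 10 counts in 2 libraries they were 9 and 0 of 37 (all genes 12.2% and 0.571%). Leaving out each library gave 5 to 8 above (14.7% to 21.6%, where all genes had 7.77% to 14.8%). It gave 0 to 2 below (0% to 5.88%, where all genes had 2.75% to 5.84%). Of the partners, 2 lay above and 0 below. Above lay 6 without length correction, 1 with the longest transcript, 18 (4 below) without a filter, 4 with at least 10 counts in 2 libraries, 1 with a protein-coding reference and 1 (2 below) after thinning. Leaving out each library gave 1 to 4 above and 0 to 2 below. The partner share above was 14% without length correction and 25.7% without a filter. Under every other setting it lay under the all-gene share. The members' median level of 0.83 became 1.59 without length correction, 0.70 with the longest transcript, 0.62 with RefSeq exons, 2.0 without a filter and 0.98 with at least 10 counts in 2 libraries, and 0.56 to 0.84 on leaving out each library. Their median range of 1.39 was 0.83 to 1.08 with 1 library left out, when fewer libraries enter each range. For the filters, the genes that set the median changed; for other moves the cause was not tested. Members varying beyond noise numbered 27 to 38 (87.1% to 100% of those tested, where all genes had 84.7% to 97.4%). Pairs of constant sign numbered 10 to 13. Of the 8 called members, Arid5a lost its call under 5 of 12 alternatives, also without a filter (-1.99, limma's adjusted p = 0.397) and with at least 10 counts in 2 libraries (-3.20, adjusted p = 0.182). No called member changed direction; the pair differences nearest 0 changed sign, with Chd2 minus Chd1 (-0.011) between -0.16 and 0.70 and Chd8 minus Chd7 (-0.034) between -0.44 and 0.55. No paired analysis was possible because the study has a single group. Replicate 1, the shallowest library, had 4 members at 0; thinned to its depth, replicates 2 and 3 had 1 and 2, against 0 and 2 at full depth.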
